A study of Mus musculus with 33 samples.

Results

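The genes described here were 38 members of the Wnt signalling pathway that act outside the cell or at its surface. They were taken by gene family, as a list of 19 Wnt ligands, 10 Frizzled receptors and 9 secreted inhibitors (Sfrp1, Sfrp2, Sfrp4, Sfrp5, Dkk1 to Dkk4 and Wif1), among 22367 protein-coding genes of the mouse annotation, with no threshold on a measured value. All 38 were found in the annotation under these names. The study compared wild type (WT) and Uhrf1 knockout (KO) E14 mouse embryonic stem cells (mESC), kept undifferentiated with leukemia inhibitory factor on gelatin or on feeder fibroblasts, and embryoid bodies (EBs) grown from them after hanging-drop aggregation and taken at weeks 1, 2 and 3. Uhrf1 is a chromatin protein needed for maintenance of DNA methylation. Chromatin immunoprecipitation sequencing (ChIP-seq) gave 1 list of enriched regions per genotype, stage and target, 25 lists from 33 samples, of which 8 were inputs without a list. The sample titles give the KO cells as Uhrf1 KO and do not say how many clones they stand for. With 1 library per group, the spread between replicates is unknown, no p-value was computed, and the share of all coding genes that met the same rule is given beside the members' counts.

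In the Wnt pathway, secreted ligands bind a Frizzled receptor and, in the canonical branch, a co-receptor of the Lrp family, which stabilises beta-catenin and lets it act with Tcf and Lef factors on target genes. Sfrp and Wif proteins bind ligands, and Dkk proteins such as Dkk1 bind the co-receptors, so both kinds can limit signalling. Trimethylation of lysine 4 of histone H3 (H3K4me3) marks the promoters of genes that are active or can be activated, and trimethylation of lysine 27 (H3K27me3), made by Polycomb complexes, marks repressed developmental genes. Promoters with both marks are called bivalent and are typical of developmental regulators in mESC.

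A promoter was counted as carrying H3K4me3 when a domain of that list overlapped the 2 kb either side of the gene start, and as carrying H3K27me3 when a domain overlapped the 5 kb either side. It was bivalent with both marks, active with H3K4me3 only, repressive with H3K27me3 only and unmarked with neither. In a bulk sample, a mark in fewer cells and a weaker mark in every cell cannot be told apart, nor can both marks on the same chromatin and each mark in different cells. Over the 8 libraries of each mark, the number of domains ran from 11509 to 39898 for H3K4me3 and from 722 to 9488 for H3K27me3. The read totals behind these lists were not used here. The KO mESC H3K27me3 list stood apart, with 722 domains covering 84.1 Mb against 8161 domains covering 960 Mb in WT mESC. The H3K27me3 lists of EBs also differed in coverage between WT and KO. They covered 101 and 180 Mb at week 1, 1165 and 467 Mb at week 2 and 791 and 420 Mb at week 3. Among markers of mESC (such as Pou5f1, Nanog and Zfp42), 8 of 9 promoters carried H3K4me3 in both mESC lists, and Esrrb was the exception in both. H3K27me3 lay within 5 kb of 5 of the 9 in WT mESC and of none in KO mESC. Of 6 markers of feeder fibroblasts, 4 promoters (Thy1, Col1a1, Col1a2 and Twist2) carried H3K4me3 in WT mESC, each together with H3K27me3, and 3 carried it in KO mESC. The part of feeder cells in the results was not tested. The Uhrf1 promoter carried H3K4me3 without H3K27me3 in every list, which says nothing of whether the gene was deleted.

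The members' promoters differed in their CpG content, which is printed here because the classes below run from bivalent in every library pair (Wnt6 and Wnt9b) through active in every pair (Fzd5 and Fzd7) to unmarked in every pair (Dkk4). The 150 bases before the start of these 5 genes, read 5′ to 3′ on the strand of the gene from the mm9 (NCBIM37) genome, with each CG dinucleotide in capitals, were as follows. None of these bases lay in an annotated exon.
Wnt6, chr1:74818316-74818465, plus strand: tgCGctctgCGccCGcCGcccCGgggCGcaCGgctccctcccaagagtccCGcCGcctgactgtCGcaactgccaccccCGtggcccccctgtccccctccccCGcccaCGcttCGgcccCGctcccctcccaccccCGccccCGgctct
Wnt9b, chr11:103611136-103611285, minus strand: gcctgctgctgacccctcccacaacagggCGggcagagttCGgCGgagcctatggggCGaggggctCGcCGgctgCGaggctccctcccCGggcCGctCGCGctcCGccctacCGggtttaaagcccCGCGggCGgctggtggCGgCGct
Fzd5, chr1:64784325-64784474, minus strand: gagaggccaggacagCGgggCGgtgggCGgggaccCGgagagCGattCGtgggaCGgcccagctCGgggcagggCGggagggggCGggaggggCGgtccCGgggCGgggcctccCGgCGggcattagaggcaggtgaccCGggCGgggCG
Fzd7, chr1:59538841-59538990, plus strand: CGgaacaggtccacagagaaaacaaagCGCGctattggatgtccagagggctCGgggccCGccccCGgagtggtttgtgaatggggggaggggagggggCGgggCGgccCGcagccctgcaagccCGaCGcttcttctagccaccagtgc
Dkk4, chr8:23734365-23734514, plus strand: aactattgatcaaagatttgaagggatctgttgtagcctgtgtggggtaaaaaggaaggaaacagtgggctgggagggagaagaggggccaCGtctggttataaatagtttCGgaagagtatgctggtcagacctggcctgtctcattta
The windows held 17 CG dinucleotides before Wnt6, 18 before Wnt9b, 18 before Fzd5, 11 before Fzd7 and 2 before Dkk4. Over 1001 bases centred on the start, the ratio of observed to expected CpG was at least 0.6 at 28 of 38 members (73.7%), against 45.6% of all coding genes. It was that high at all 10 receptors, at 14 of 19 ligands and at 4 of 9 inhibitors. The medians were 0.809 for receptors, 0.738 for ligands, 0.503 for inhibitors and 0.549 for all coding genes. The lowest ratios were those of Wnt8a (0.254), Dkk4 (0.306), Wnt8b (0.326) and Wnt16 (0.351), and the highest those of Sfrp1 (1.04) and Fzd3 (1.03). A low ratio did not go with 1 class: Wnt8a was bivalent in 7 of 8 library pairs, Wnt8b carried H3K27me3 in all 8, and Dkk4 carried neither mark in any.

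In WT mESC, 31 of 38 members were bivalent, against 18.3% of all coding genes, and in KO mESC 6 were, against 4.29%. Each of the 6 was a ligand: Wnt2b, Wnt3, Wnt6, Wnt8a, Wnt9b and Wnt10b. With the WT H3K27me3 list shortened to the bases covered by the KO list, keeping the domains of highest mean count, 14 members were bivalent in WT mESC (6.33% of coding genes), and with only domains of at least the median score the numbers were 10 in WT and 3 in KO. At week 1, 19 members were bivalent in WT and 9 in KO, where the background was 15.2% and 10.7%. At week 2 the members numbered 20 and 16 (background 13.7% and 13.4%), and at week 3 they numbered 25 and 17 (background 19.6% and 11.3%). The WT count was thus above the KO count at all 4 stages, and the difference was smallest at week 2. In every list pair the members' share was above that of all coding genes, from 6 of 38 in KO mESC to 31 of 38 in WT mESC.

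The grid of promoter classes shows all 38 genes by stage and genotype. WT mESC had bivalent promoters in each of the 3 lists of genes, namely 18 of 19 ligands (all but Wnt8b, which was repressive), 7 of 10 receptors (all but Fzd5, Fzd7 and Fzd9, which were active) and 6 of 9 inhibitors. Sfrp4 and Dkk3 were active and Dkk4 was unmarked. In WT EBs the lists parted. Of 19 ligands, 12, 13 and 16 were bivalent at weeks 1, 2 and 3, of 10 receptors 3, 1 and 4, and of 9 inhibitors 4, 6 and 5. There were 13 members that were bivalent at all 4 WT stages (34.2%, against 5.85% of all coding genes), of which 10 were ligands, 3 were inhibitors (Sfrp1, Dkk1 and Wif1) and 0 were receptors. H3K4me3 was present in all 8 lists at 7 of 10 receptors, 5 of 9 inhibitors and 4 of 19 ligands (Wnt5a, Wnt6, Wnt9b and Wnt11), against 50.3% of all coding genes.

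**Figure D1:**
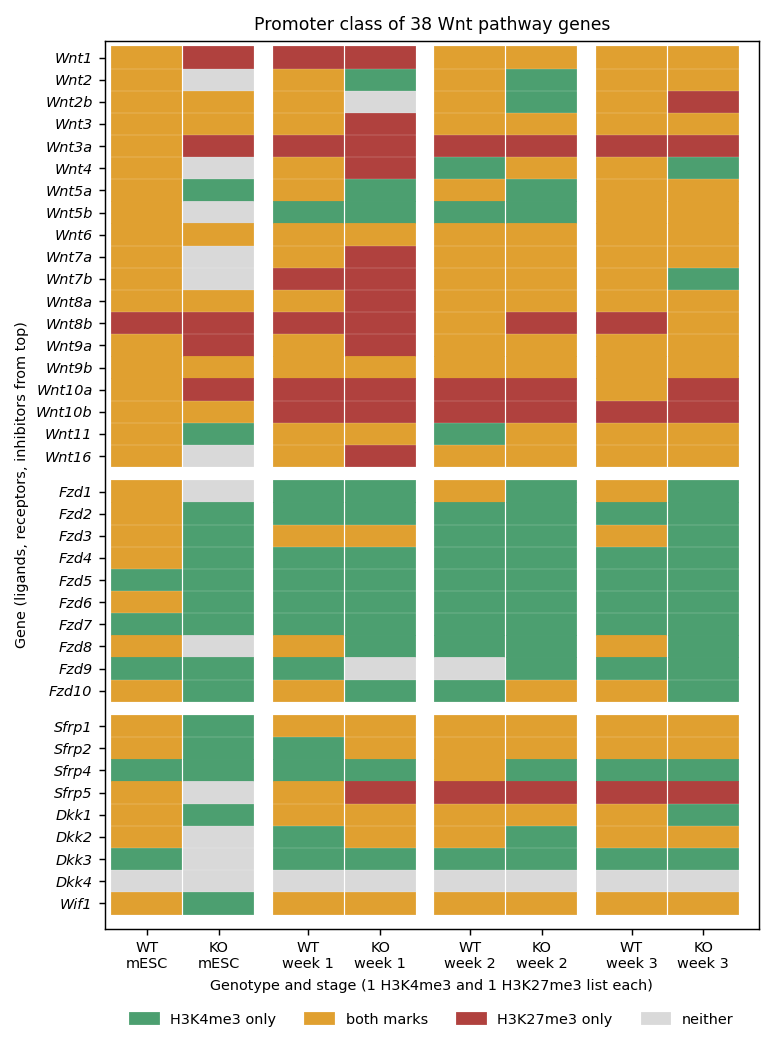
Promoter class of the 38 members (rows, by list) in each genotype and stage (columns), from 1 H3K4me3 and 1 H3K27me3 domain list per column. Both marks were present at 31 members in WT mESC and at 6 in KO mESC, and receptors were mostly in the H3K4me3-only class from week 1.

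To ask what became of WT bivalent promoters without Uhrf1, the class of each was read in the KO lists of the same stage. In mESC, 25 of the 31 WT bivalent members were not bivalent in KO, against 85.4% of all WT bivalent coding genes, a share close to that of the members. In KO they were active at 11 members (all coding genes 60.5%), unmarked at 10 (19.0%), repressive at 4 (5.80%) and still bivalent at 6 (14.6%). The active group held Frizzled receptors and inhibitors above all (Fzd2, Fzd3, Fzd4, Fzd6, Fzd10, Sfrp1, Sfrp2, Wif1 and Dkk1) with only 2 ligands, Wnt5a and Wnt11. The repressive group was made up of ligands (Wnt1, Wnt3a, Wnt9a and Wnt10a). The unmarked group held 6 ligands (Wnt2, Wnt4, Wnt5b, Wnt7a, Wnt7b and Wnt16), 2 receptors (Fzd1 and Fzd8) and 2 inhibitors (Sfrp5 and Dkk2). Each of these mESC counts rests on the short KO H3K27me3 list.

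In EBs, WT bivalent members that were not bivalent in KO numbered 12 of 19 at week 1 (all coding genes 49.1%), 7 of 20 at week 2 (45.5%) and 9 of 25 at week 3 (53.3%). The destination differed by stage. At week 1, 7 of the 12 were repressive in KO (Wnt3, Wnt4, Wnt7a, Wnt8a, Wnt9a, Wnt16 and Sfrp5), 4 were active (Wnt2, Wnt5a, Fzd8 and Fzd10) and Wnt2b was unmarked. Over all WT bivalent coding genes at week 1, 20.3% were repressive and 24.1% active in KO. On that base, all 19 WT bivalent members, the numbers were 7 and 4. At week 2, 6 of the 7 were active in KO (Wnt2, Wnt2b, Wnt5a, Fzd1, Sfrp4 and Dkk2), and at week 3, 7 of the 9 were (Wnt4, Wnt7b, Fzd1, Fzd3, Fzd8, Fzd10 and Dkk1). The others were repressive in KO: Wnt8b at week 2, and Wnt2b and Wnt10a at week 3. Over all WT bivalent coding genes, kept or not, the share that was active in KO was 35.3% at week 2 and 46.8% at week 3. On that base the members that were active in KO were 6 of 20 and 7 of 25.

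**Figure D2:**
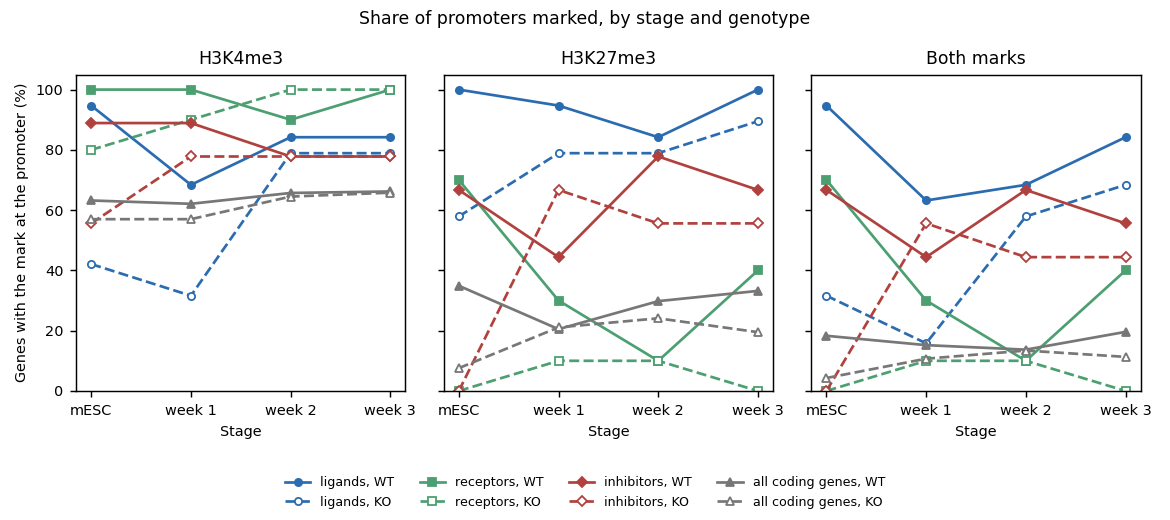
Percentage of ligands (n = 19), receptors (n = 10), inhibitors (n = 9) and all coding genes (n = 22367) with H3K4me3, H3K27me3 or both at the promoter (vertical axes, %) at each stage (horizontal axes), with filled symbols and solid lines for WT and open symbols and dashed lines for KO, 1 list each. Ligands with H3K4me3 numbered 8 and 6 of 19 in KO mESC and KO week 1, and 15 in KO weeks 2 and 3.

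Ligands accounted for most of the difference in H3K4me3. From mESC to week 3, 18, 13, 16 and 16 of 19 ligands carried H3K4me3 in WT, and 8, 6, 15 and 15 did in KO. Of WT promoters with H3K4me3, 15 of 36 members had none in KO mESC, against 12.0% of all coding genes, and these comprised 10 of 18 ligands, 2 of 10 receptors and 3 of 8 inhibitors. At week 1, 9 of 31 members with WT H3K4me3 had none in KO (all coding genes 10%), 7 of them ligands. At week 2 only Wnt8b of 32 did (5.33%), and at week 3 only Wnt2b and Wnt10a of 33 did (3.73%). In the other direction, KO promoters with H3K4me3 that WT did not have were Fzd9 at week 2 and Wnt8b at week 3.

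Ligand promoters had low H3K4me3 counts in WT mESC as well. The mean read count per bin of 1300 bp ran from 7.29 to 16.7 over the 18 ligands with a domain, with a median of 8.79, against 13 for receptors, 14.2 for inhibitors and 13.5 over the whole list. Low counts went with absence in KO across the genome. Coding genes with a WT domain were split into 5 quintiles by its mean count. In the lowest quintile of WT mESC, 35.7% of promoters had no H3K4me3 in KO, against 13.2% in the next quintile and 1.77% in the highest. In the lowest quintile, 12 of 18 members had none, 9 of them among 14 ligands, and in the next quintile 3 of 7 members had none. In the 3 upper quintiles, each of the 11 members kept a domain. At week 1 the lowest quintile held 12 members, of which 7 had no domain in KO, against 37.8% of all coding genes in that quintile.

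For H3K27me3 the lists also parted. WT domains were present at 19, 18, 16 and 19 ligands, at 7, 3, 1 and 4 receptors and at 6, 4, 7 and 6 inhibitors in mESC and at weeks 1, 2 and 3. KO domains were present at 11, 15, 15 and 17 ligands, at 0, 1, 1 and 0 receptors and at 0, 6, 5 and 5 inhibitors. Over all coding genes the shares, in the same order of stages, were 34.9%, 20.5%, 29.8% and 33.2% in WT. In KO they were 7.57%, 21.1%, 24.1% and 19.5%. Of members with WT H3K27me3, 21 of 32 had none in KO mESC (all coding genes 84.5%), 5 of 25 at week 1 (27.7%), 6 of 24 at week 2 (51.2%) and 7 of 29 at week 3 (50.1%). These shares were below the background at each stage, nearest to it at week 1, and the difference was not tested. Of receptors with WT H3K27me3, a KO domain was present at 0 of 7 in mESC, 1 of 3 at week 1, 0 of 1 at week 2 and 0 of 4 at week 3. In mESC the inhibitors did not differ from them, at 0 of 6, and most coding genes had none either. The receptor numbers in EBs are too small to set against the background. The 11 that had it in KO mESC were all ligands and lay on 7 separate domains, since 4 pairs of neighbouring genes shared a domain. Their KO mean counts ran from 0.644 to 2.20 per bin of 1500 bp, below the lowest mean count of any domain in the WT list, 3.04 per bin of 1800 bp, so that the bins differed. With that count as a minimum, none of the 31 WT bivalent members was bivalent in KO mESC. As the minimum was the lowest WT count and these KO counts all lay below it, this outcome was fixed in advance.

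The members with H3K27me3 in KO mESC were those with the higher counts in WT mESC, where the mean count per bin was 7.39 to 15.6 (median 11.9) at the 11 members with a KO domain and 3.13 to 10 (median 5.26) at the 21 without. Where the ranges overlapped, Wnt8b (7.39), Wnt2b (7.56), Wnt6 and Wnt10a (9.12 for their common domain) had a KO domain, and Wnt4 (7.51) and Wif1 (10) had none. In the highest quintile of WT mean counts over all coding genes, 58.3% of promoters had no KO domain, against 4 of 15 members, and among the 12 ligands in that quintile 1 had none. In the lower 4 quintiles none of the 17 members had a KO domain, where the share of all coding genes without one was 79.3% to 98.4%. In EBs the corresponding WT medians were 15.4 and 13.3 at week 1, 8.37 and 5.68 at week 2 and 11.1 and 8.72 at week 3, for members with and without a KO domain. The plot of WT mean counts shows that the ranges overlapped at each of these stages.

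**Figure D3:**
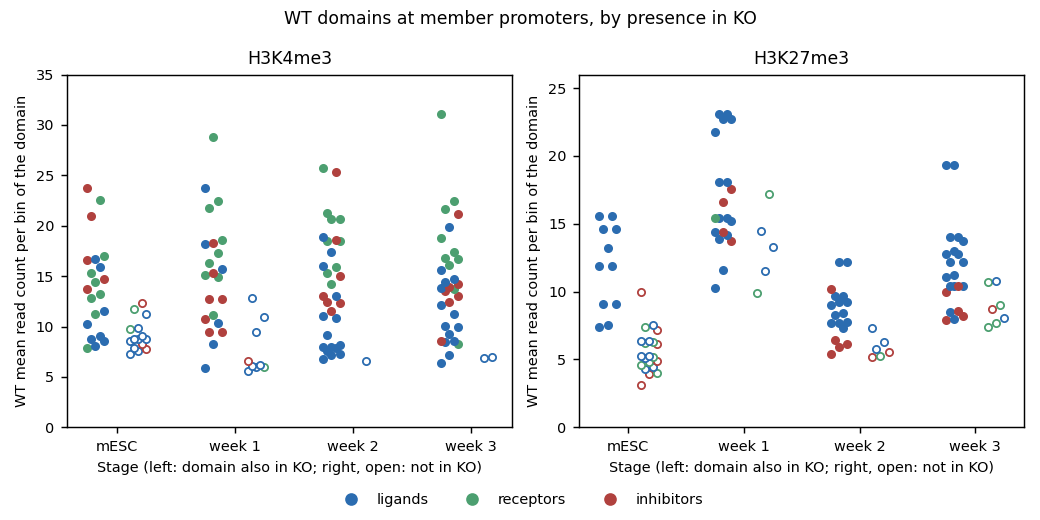
Mean read count per bin of the WT domain (vertical axes) at each member promoter by stage, for H3K4me3 (left panel) and H3K27me3 (right panel), with filled points for members that also had a KO domain and open points for those that did not. Colours give the list. In mESC the 11 members with H3K27me3 in KO were all ligands, with WT mean counts from 7.39 to 15.6.

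Among the ligands, Wnt6 and Wnt9b were bivalent in all 8 library pairs, as were 0.684% of all coding genes. The H3K27me3 domain over Wnt6 was 400 kb long in WT mESC and 382 kb in KO mESC, and from 75.2 to 324 kb in EBs. Its mean count per bin was 9.12 and 2.20 in WT and KO mESC, 23.1 and 13.2 at week 1, 9.68 and 8.55 at week 2 and 14 and 7.14 at week 3. It covered the whole window in all 8 lists. The H3K4me3 domain of Wnt6 spanned 70.2 kb in WT mESC (mean count 8.57) and 18.2 kb in KO mESC (5.19). In EBs it was 3.60 kb in WT and 1.05 kb in KO at week 1, 6.80 and 5.25 kb at week 2 and 4.0 and 3.20 kb at week 3, where the mean counts ran from 5.89 to 13.8. The bin was 1300 bp in mESC. In EBs the bin was 400 bp, except in KO at weeks 1 and 2, where it was 350 bp. Lengths in mESC and in EBs were thus not on the same footing, nor were WT and KO mean counts at weeks 1 and 2. The domain covered 90.0% of the 4 kb window in WT and 26.2% in KO at week 1, and 78.4% to 100% at the other stages.

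At Wnt9b the H3K4me3 domain was 7.80 kb long in both WT and KO mESC, with mean counts of 11.5 and 8.33. In EBs it was 2.80 kb in each WT list, against 0.700 kb in KO at week 1, 4.20 kb at week 2 and 2.40 kb at week 3. The covered share of the window was lowest in KO at week 1 (17.5%). H3K27me3 at Wnt9b spanned 130 kb in WT mESC and 394 kb in KO mESC, where the mean count was 14.6 and 1.63. In EBs its length was 22.8 and 124 kb in WT and KO at week 1, 63.0 and 122 kb at week 2 and 117 and 131 kb at week 3, and the window was covered whole. KO domains were thus the longer at all 4 stages here, with the lower mean count at 3 of them, the exception being week 2 (7.67 in WT and 10.4 in KO).

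There were 4 pairs of ligand genes with starts within 50 kb of each other, and these neighbours shared H3K27me3 more often than H3K4me3. The pairs were Wnt1 and Wnt10b (starts 11.7 kb apart), Wnt3a and Wnt9a (16.2 kb), Wnt6 and Wnt10a (19.6 kb) and Wnt3 and Wnt9b (24.3 kb). A single H3K27me3 domain reached both promoters in all 8 lists for 3 pairs and in 7 of 8 for Wnt3 and Wnt9b, the exception being WT week 1. A single H3K4me3 domain reached both promoters only in WT mESC, for the 3 pairs other than Wnt3 and Wnt9b. The 2 genes of a pair are therefore not independent observations of H3K27me3.

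Within the pairs the partners differed in H3K4me3. Over Wnt1 and Wnt10b the WT mESC domain was 57.2 kb long (mean count 9.03). In KO mESC Wnt10b had a domain of 26 kb (5.72) and Wnt1 had none. In EBs the order was the opposite: Wnt10b had no H3K4me3 domain in any of the 6 lists, whereas Wnt1 had one in both genotypes at week 2 (2.00 kb in WT, 1.05 kb in KO) and at week 3 (1.20 kb in both), covering 17.2% to 37.2% of the window. H3K27me3 over this pair was 48.6 kb in WT mESC (15.6) and 126 kb in KO mESC (0.908), and 41.4 to 50.4 kb in EBs, with mean counts at weeks 1, 2 and 3 of 22.7, 12.2 and 19.3 in WT and 14.9, 8.25 and 8.62 in KO.

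Wnt3a, a canonical ligand of the primitive streak, and its neighbour Wnt9a shared a 29.9 kb H3K4me3 domain in WT mESC (8.78), and neither had H3K4me3 in KO mESC. Wnt3a had no H3K4me3 in any EB list. Wnt9a had a domain of 4.40 kb in WT and none in KO at week 1, 5.60 and 5.25 kb at week 2 and 5.60 and 4.80 kb at week 3, and covered shares of 80.7% to 90.7%. Their common H3K27me3 domain was 72.0 kb in WT mESC (11.9) and 146 kb in KO mESC (1.96), and 45.0 to 148 kb in EBs with mean counts of 7.42 to 18.1. It covered the whole Wnt3a window in every list and 19.7% to 100% of that of Wnt9a. At Wnt6 and Wnt10a, which shared the 70.2 kb domain in WT mESC, Wnt10a had H3K4me3 otherwise only at WT week 3 (1.60 kb, mean count 7.00, 40.0% of the window).

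Wnt3, a ligand that acts in gastrulation, was the exception to shared H3K4me3: its own domain was 7.80 kb in WT mESC (16.7) and 9.10 kb in KO mESC (13.3). At week 1 it was 7.20 kb in WT (12.8) and absent in KO. At week 2 it was 0.800 kb in WT (13) and 2.1 kb in KO (5.50), and at week 3 it was 7.60 kb (8.53) and 6.40 kb (13.2). The window was covered to 20% and 56.3% at week 2 and whole in the other lists with a domain. H3K27me3 at Wnt3 covered the whole window in all 8 lists, with a separate domain of 45.5 kb (10.3) at WT week 1 and the domain shared with Wnt9b elsewhere.

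**Figure D4:**
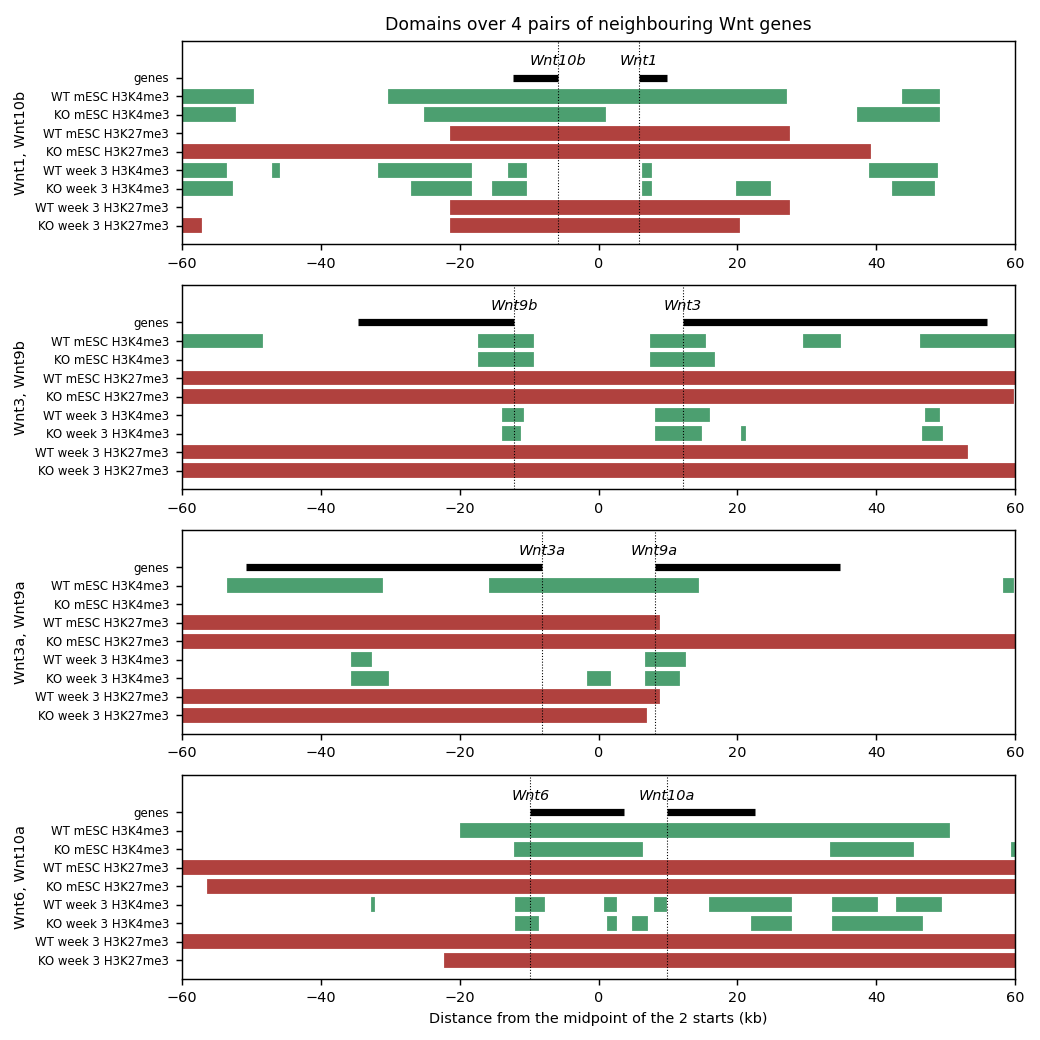
H3K4me3 (green) and H3K27me3 (red) domains in WT and KO mESC and at week 3 over the 4 pairs of neighbouring Wnt genes, by distance from the midpoint of the 2 starts (horizontal axes, kb), ending at the edges of the plot, with gene bodies as black bars and starts as dotted lines. In WT mESC a single H3K4me3 domain spanned both starts in 3 of the 4 pairs.

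Wnt2b, a canonical ligand, was picked by the study on these samples, so that its values are not independent evidence. The study named it among muscle or heart genes that lost H3K27me3 on bivalent promoters in KO EBs. In the lists used here, H3K27me3 was absent in KO at weeks 1 and 2 but present at week 3, where H3K4me3 was absent. Wnt2b was bivalent at all 4 WT stages and in KO mESC. H3K4me3 spanned 10.4 kb in WT mESC (10.3) and 7.80 kb in KO mESC (7.80). In WT EBs it spanned 10, 10.8 and 9.60 kb at weeks 1, 2 and 3, with mean counts of 5.94, 8.17 and 6.92, whereas KO had a domain only at week 2 (5.60 kb, 4.55). The window was covered to at least 88.2% in each list with a domain. H3K27me3 spanned 34.2 kb in WT mESC (7.56) and 36.0 kb in KO mESC (0.644), the lowest KO mean count of any member. At week 1 it spanned 7.00 kb in WT (13.3), at week 2 25.2 kb in WT (7.31), and both weeks had none in KO. At week 3 it spanned 34.2 kb in WT (11.2) and 43.2 kb in KO (5.33), and the covered share was 70% at WT week 1 and 96.3% to 100% in the other lists with a domain. The KO path of this promoter was thus bivalent, unmarked, active and repressive from mESC to week 3, 4 different classes. Wnt4 and Wnt7b also took 4 classes in KO, in the order unmarked, repressive, bivalent and active.

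Of the other ligands, Wnt8a was bivalent in 7 of 8 library pairs and had an H3K4me3 domain of 45.5 kb in WT mESC (8.79) and 19.5 kb in KO mESC (7.67), and KO week 1 was the list without one. Wnt5a and Wnt11 carried H3K4me3 in all 8 lists. At Wnt5a H3K4me3 spanned 24.7 kb in WT mESC (8.02) and 20.8 kb in KO mESC (7.26), and 9.45 to 16.8 kb in EBs, where the mean counts were 18.9 to 23.7 in WT and 14.5 to 21.8 in KO. Its H3K27me3 domain was 227 kb in WT mESC and 279 kb at WT week 3 (5.26 and 8.53), and in KO there was one only at week 3 (19.8 kb, 6.47). Wnt4 and Wnt11 carried H3K27me3 in KO but not in WT at week 2. The domain was 238 kb at Wnt4 (5.49) and 18 kb at Wnt11 (8.89).

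The receptor genes were the most uniformly marked with H3K4me3. Fzd5 and Fzd7 were active in all 8 library pairs, as were 6702 of 22367 coding genes. At Fzd5 H3K4me3 spanned 15.6 kb in WT mESC (22.6) and 20.8 kb in KO mESC (11), 11.2 and 6.65 kb in WT and KO at week 1 (15.1 and 8.74), 10 and 10.5 kb at week 2 (18.5 and 11.8) and 11.6 and 12.0 kb at week 3 (18.8 and 20). At Fzd7 it spanned 24.7 kb in both mESC lists (17.0 and 12.4), 9.20 and 8.75 kb at week 1 (28.8 and 20.7), 21.6 and 26.2 kb at week 2 (20.7 and 10.8) and 10.4 and 13.6 kb at week 3 (31.1 and 24.5). The window was covered whole but for Fzd7 in KO at week 1 (97.3%). The mean count in KO was below that in WT in 7 of these 8 comparisons, Fzd5 at week 3 being the exception. At weeks 1 and 2 the bin was 350 bp in KO and 400 bp in WT. Counts per bin at those weeks, here and in the list medians, were thus not on the same footing. The median over the whole list was also lower in KO at each stage, at 13.5 in WT and 11.2 in KO in mESC, 13 and 11 at week 1, 10.2 and 8.31 at week 2 and 11.7 and 11.3 at week 3.

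Fzd2 had the longest H3K4me3 domain of any member in WT mESC, 190 kb (12.8), and in KO mESC it was 104 kb (11.8). In EBs it was 9.45 to 17.2 kb, with mean counts of 16.1 to 25.7 in WT and 15.6 to 19.7 in KO, and covered the whole window. Fzd2 had H3K27me3 in WT mESC only, a domain of 7.20 kb (7.37) that covered 21.4% of the window, and none in the other 7 lists. Fzd4 and Fzd6 likewise carried H3K27me3 only in WT mESC. At Fzd1 and Fzd8, H3K4me3 of WT mESC (3.90 kb with a mean count of 9.80, and 9.10 kb with 11.7) had no counterpart in KO mESC, and both had H3K4me3 in all 6 EB lists. H3K27me3 was present at week 3 in WT at Fzd1, Fzd3, Fzd8 and Fzd10, 4 of 10 receptors, and at 0 of 10 in KO. Over all coding genes the share at week 3 was also lower in KO, at 33.2% in WT and 19.5% in KO. Fzd10 alone of the receptors had H3K27me3 in KO but not in WT at week 2, a domain of 270 kb (5.06) that covered 31.2% of the window. Fzd9 never carried H3K27me3, and had no H3K4me3 in KO at week 1 and in WT at week 2.

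Among the inhibitors, Sfrp1 and Wif1 were bivalent in 7 of 8 library pairs and active in KO mESC. At Sfrp1 the H3K27me3 domain was 767 kb in WT mESC (4.89), 43.8 and 55.8 kb in WT and KO at week 1, 1132 and 590 kb at week 2 and 1251 and 634 kb at week 3. H3K4me3 at Sfrp1 had the highest mean count of any member in WT mESC (7.80 kb, 23.7) and spanned 10.4 kb in KO mESC (8.89). At Wif1 H3K27me3 was 27 kb in WT mESC (10), absent in KO mESC, and 16.2 to 194 kb in EBs. Dkk1, a canonical antagonist, was bivalent at all 4 WT stages and in KO at weeks 1 and 2. Its H3K27me3 domain was 75.6 kb in WT mESC (7.15), and KO had none in mESC and at week 3.

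Of the 3 lists of members, the inhibitors alone had more genes with H3K27me3 in KO than in WT at a stage. At week 1, 6 of 9 had H3K27me3 in KO and 4 in WT, where all coding genes stood at 21.1% and 20.5%, and the 2 in which it was in KO only were Sfrp2 (66.6 kb, 7.22, covering 12.4% of the window) and Dkk2 (5.40 kb, 14.8, covering 40.6%). At week 2 the counts were 5 in KO and 7 in WT, with Dkk2 (981 kb, 5.54) and Sfrp4 (286 kb, 5.20) in WT only. Sfrp5 had H3K4me3 only in WT mESC (5.20 kb, 8.25) and at WT week 1 (2.00 kb, 6.60), and H3K27me3 in all lists but KO mESC. Dkk3 carried H3K4me3 in all lists but KO mESC and never H3K27me3. Dkk4, the member that was unmarked in WT mESC, had no domain of either mark in any of the 8 library pairs, as did 1761 of 22367 coding genes.

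Oct4, Sox2 and Nanog, the core transcription factors of pluripotency, were mapped in mESC only, as summits, the highest points of called peaks, whose height is a number of reads. The lists differed in length between genotypes in opposite directions, so that the members' counts are read against all coding genes. Oct4 had 12898 summits in WT and 576 in KO, Sox2 5190 and 20755, and Nanog 2390 and 10632. An Oct4 summit lay within 10 kb of the start at 11 members in WT (all coding genes 12.5%) and at 0 in KO (0.335%). For Sox2 the members numbered 8 in WT (9.0%) and 25 in KO (37.8%), and for Nanog 5 in WT (2.54%) and 9 in KO (10.2%). The 11 members with Oct4 in WT were 3 ligands (Wnt3a, Wnt5a and Wnt8a), 5 receptors (Fzd2, Fzd5, Fzd7, Fzd8 and Fzd10) and 3 inhibitors (Sfrp1, Sfrp2 and Dkk1). The 5 with Nanog in WT were Wnt8a, Fzd2, Fzd5, Fzd7 and Fzd8, each of which also had Oct4. In all, 26 of 38 members had a summit of some list within 10 kb.

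Summits were joined into 1 place when each lay within 100 bp of the next along the chromosome, so that the outer summits of a place can lie further apart, as at Fzd10, where Oct4 in WT and Sox2 in KO are joined through Sox2 in WT. Oct4 in WT occupied 17 places near members, with heights of 27 to 113 reads (median 49.0). Of these places 7 had Sox2 in WT and 12 in KO, and 5 had Nanog in WT and 8 in KO. The Sox2 and Nanog lists were the longer in KO, and the same shares over all WT Oct4 summits were not counted. Of the 17 places, 16 lay in a WT H3K4me3 domain and 12 in a WT H3K27me3 domain. Most member promoters carried these marks in WT mESC, 36 of 38 and 32 of 38. Sox2 in KO occupied 36 places. At the 12 with WT Oct4 its height was 15 to 75 reads (median 37.5), and at the 24 without it was 11 to 45 (median 14).

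The place with all 3 factors in WT nearest to a start was at Fzd2, 785 bp upstream. Oct4 had 56 reads there in WT, Sox2 48 in WT and 75 in KO, and Nanog 56 and 43. At Fzd7, 9.37 kb upstream, Oct4 had 40 reads in WT, Sox2 49 in KO only, and Nanog 45 in WT and 63 in KO. Sox2 and Nanog thus had summits at both places in KO, where Oct4 had none. At Dkk1, 4.25 kb upstream, Oct4 had 58 reads in WT, and Sox2 (32) and Nanog (11) were listed in KO only. In introns of Wnt3a and Wnt5a, 8.43 and 8.24 kb from the start, Oct4 had 31 and 44 reads in WT, and Sox2 15 and 32 in KO only. At Wnt8a, Oct4 had 99 reads in WT 323 bp upstream with no other factor listed. Downstream of the gene, 9.62 kb from its start, Oct4 had 113 reads in WT, Sox2 61 and 51 in WT and KO, and Nanog 20 and 25.

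The 101 bases centred on the WT Oct4 summits at 5 of these places are printed because Oct4 was listed there in WT only while Sox2 was listed in KO at each. They are on the plus strand of mm9, and capitals mark the words CTTTGT, a core of the sites of Sox and Tcf proteins, and CATTGT, another Sox word, on either strand.
Fzd2, chr11:102464910-102465010, plus strand: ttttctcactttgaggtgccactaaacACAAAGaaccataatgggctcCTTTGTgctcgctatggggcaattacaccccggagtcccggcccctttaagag
Fzd7, chr1:59529571-59529671, plus strand: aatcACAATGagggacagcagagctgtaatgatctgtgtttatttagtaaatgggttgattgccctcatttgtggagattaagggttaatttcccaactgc
Dkk1, chr19:30628353-30628453, plus strand: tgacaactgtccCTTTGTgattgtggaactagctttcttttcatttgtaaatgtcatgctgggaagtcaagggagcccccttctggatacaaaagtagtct
Wnt3a, chr11:59095776-59095876, plus strand: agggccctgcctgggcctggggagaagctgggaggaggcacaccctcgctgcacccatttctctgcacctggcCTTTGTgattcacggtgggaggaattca
Wnt5a, chr14:29326122-29326222, plus strand: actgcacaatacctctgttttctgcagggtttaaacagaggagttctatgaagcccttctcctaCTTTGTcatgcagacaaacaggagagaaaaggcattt
The Fzd2, Fzd7 and Dkk1 windows were intergenic and those of Wnt3a and Wnt5a intronic. The word was counted over 12 windows, those of all WT Oct4 summits near members other than the 2 at Wnt8a and the 3 at Fzd8, whose sequence was not used here, and with or without Sox2 in KO. Of these 12 windows, at 9 members, 5 held CTTTGT, against 13.7% of the 12697 windows of the WT Oct4 list, and this word was chosen after the sequences were seen. CATTGT was in 1 of 12 (7.88% of the list), and the octamer ATGCAAAT, a word of Oct4 sites, was in 1 (8.82%), at Sfrp2. Both strands were searched, and no match shows only that these letters were not in the window. The windows at Fzd5, Sfrp2 and the nearer of 2 at Fzd10 touched an exon and are not printed.

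**Figure D5:**
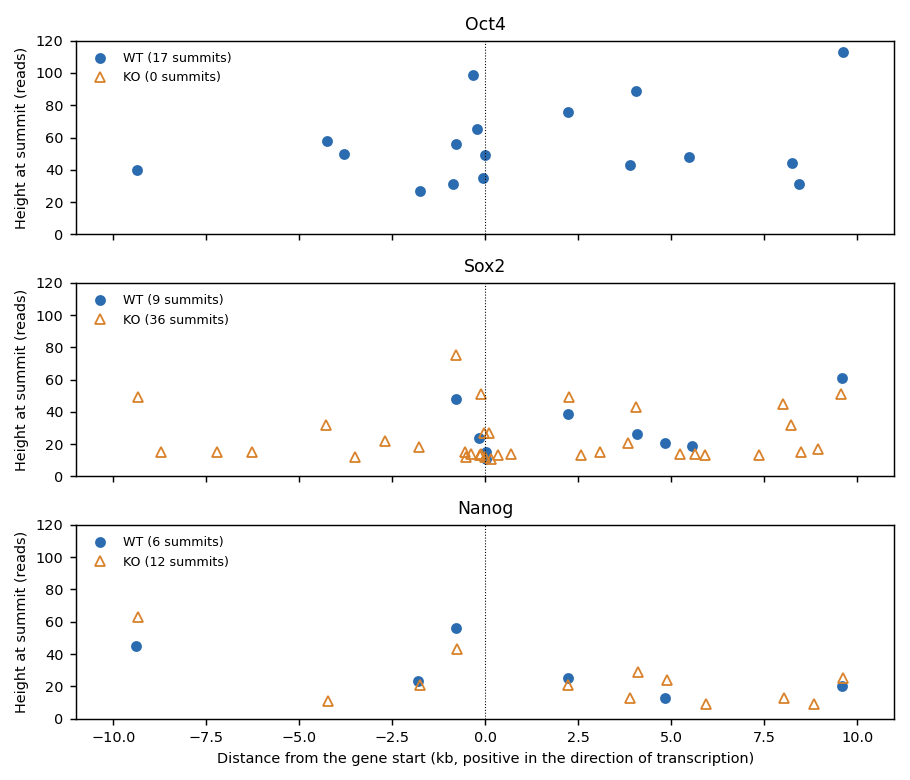
Oct4, Sox2 and Nanog summits within 10 kb of a member's start in mESC, by distance from the start (horizontal axis, kb, positive in the direction of transcription) and height (vertical axes, reads), with filled circles for WT and open triangles for KO. Oct4 had 17 summits in WT and 0 in KO, and Sox2 9 in WT and 36 in KO.

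At the other members with Oct4, Fzd5 had 89 Oct4 reads in WT at a place 4.07 kb inside the gene, with Sox2 at 26 in WT and 43 in KO and Nanog at 29 in KO only. Fzd8 had 3 places with Oct4, of 27, 76 and 43 reads, each with Sox2 in KO (18, 49 and 21). Fzd10 had Oct4 at 65 reads 221 bp upstream of the start, with Sox2 at 24 in WT and 51 in KO, and a second place with Oct4 alone (50). Sfrp2 had Oct4 at 49 reads 9 bp upstream of the start, with Sox2 at 15 in WT and 27 in KO, and Sfrp1 had Oct4 alone (31 reads, 860 bp upstream). Among ligands with Sox2 within 10 kb in KO only, the height was 13 at Wnt3, 15 at Wnt7a and 13 at Wnt9a, against the 32 at Wnt5a given above. Wnt9b had Sox2 in both genotypes just inside the gene, at 11 reads in WT (13 bp from the start) and 12 in KO (3 bp). Heights are counts in libraries whose depth was not used here, so WT and KO heights are set side by side and not compared as levels.

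Uhrf1 itself was mapped in WT mESC as windows of 10 kb enriched over input. None of the 38 members had such a window within 10 kb of the start, against 8.39% of all coding genes. The same held for 51 other pathway genes, 9 mESC markers and 6 fibroblast markers, so it was not particular to the members. No member had a window in the gene body, for which the share of all coding genes was not counted. The windows nearest to members lay 12.9 kb from the start of Fzd8, 18.7 kb from Fzd3, 21.8 kb from Fzd1 and 32.0 kb from Sfrp1. The median distance was 247 kb over the 37 members with a window within 2 Mb, which left out Wnt4. H3K9me3, the mark of constitutive heterochromatin that Uhrf1 is known to recognise, had a domain within 5 kb of the start at 9 members in WT mESC (all coding genes 29.7%) and at 10 in KO mESC (40.1%). Both genotypes had it at Wnt3, Wnt3a, Wnt9b and Fzd2. In KO, those of Wnt3, Wnt9b and Fzd2 were 1 and the same domain of 26415 kb on chromosome 11, whereas in WT Wnt3 and Wnt9b shared a domain of 115 kb and Fzd2 had one of 153 kb. The Wnt3a domain was 61.2 kb in WT and 1487 kb in KO. WT only had it at Wnt16, Fzd1, Sfrp1, Dkk1 and Dkk4, and KO only at Wnt2b, Wnt9a, Fzd4, Fzd7, Sfrp4 and Wif1.

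The rest of the pathway, 51 further genes found by name, was counted by the same rule. In WT mESC 26 of 51 were bivalent and in KO mESC 5 were, and at weeks 1, 2 and 3 the numbers were 17 and 13, 12 and 11, and 20 and 15. By role, WT and KO mESC had bivalent promoters at 7 and 0 of 13 co-receptors and agonists (Lrp, Ror, Rspo and Lgr genes among them), at 5 and 3 of 5 genes of ligand secretion and receptor turnover (Porcn, Wls, Notum, Znrf3 and Rnf43), at 4 and 0 of 7 other antagonists, at 1 and 0 of 9 cytoplasmic components, at 3 and 0 of 8 nuclear factors and at 6 and 2 of 9 target genes. H3K4me3 was present in all 8 lists at 38 of these 51 genes, including all 8 nuclear factors (Tcf, Lef, Bcl9 and Pygo genes) and 8 of 9 cytoplasmic components, against 16 of the 38 members. H3K4me3 of WT mESC had no counterpart in KO mESC at 4 of 48 of them, against 15 of 36 members.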

How the data were processed

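ChIP-seq lists of H3K4me3 and H3K27me3 (mESC and EBs), and of H3K9me3, Oct4, Sox2, Nanog and Uhrf1 (mESC) were used, with samples grouped by genotype, stage and target as labelled. The authors mapped reads to mm9 with Bowtie2 2.1.0 and called 1 list per library. RSEG gave the histone domains, with input as control. For each domain the deposited files hold a signal (reads per bin, averaged over the domain) and a score. The bin was 350 to 1800 bp and the methods describe scaling of read counts to all mapped reads without saying whether this column was scaled. The sequencing summary of the supplement was not used here. MACS gave the summits, whose deposited height is a signal in reads. Uhrf1 windows have no score. The authors classed promoters by reads over input, here by overlap of at least 1 bp with deposited domains.

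Gene starts were taken from GENCODE on NCBIM37, the mm9 assembly: 0 of 530 pairs of list and chromosome passed a chromosome end. Where several domains met a window, the one covering most of it gave the length and mean count. Quintiles are of the WT mean count over all coding genes with a domain. Scripts used Python 3.11, numpy 2.4.6 and matplotlib 3.10.9. On simulated data, 0 of 10000 classes were wrong. The members and lists were chosen with earlier results of these data known. All members are named by class. Values are given for the members with the longest WT mESC H3K4me3 domains, with 1 class in all pairs, with a neighbour within 50 kb, unmarked in WT mESC, and for Wnt2b. The rule also took in members with a summit within 10 kb, and as these were 26 of 38, heights and distances are given for some of them and domain values for part. One further antagonist, Draxin, was not matched. The 8 inputs were not used here.

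Alternatives were narrower windows, at least 50% of the window covered, only domains with at least the median score, only summits with at least the median height, any transcript start, an H3K27me3 count minimum, 50 kb or the gene body for summits, and other overlaps for Uhrf1 and H3K9me3. A list of equal covered length and 1 member per shared domain were added after the data were seen. Counting over genes has no sampling interval, and depth per library was not used.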

Additional observations from a re-analysis of the deposited data

Results flagged for a closer look

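Some differences between KO and WT had opposite signs at different stages. With 1 library per group, none of these differences between stages was tested. The number of inhibitors with H3K27me3 differed between KO and WT by -6 in mESC and by 2, -2 and -1 in EBs of weeks 1, 2 and 3, of 9 inhibitors. The number of inhibitors with a bivalent promoter differed by -6, 1, -2 and -1 at the same stages. The number of receptors with H3K4me3, of 10, differed by -2 in mESC and by -1, 1 and 0 in the EBs, and the gene behind the value at week 2 was Fzd9. The KO mESC H3K27me3 list, which enters the values of -6, was the shortest of its kind with 722 domains.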

How the results depend on the processing

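Of 81 alternative values for 21 counts, 60 stayed within 1.5 times the count reported. The 60 include values that could not leave this range, so they overstate the agreement. These are counts of 0 that could not change, and the mESC count under the H3K27me3 minimum (31 of 31, against 25 of 31). With only domains at or above the median score of their list, bivalent members in WT and KO numbered 10 and 3 in mESC and, in order of week, 7 and 5, 12 and 9, then 12 and 6, and WT bivalent members not bivalent in KO numbered 7 in mESC and 3 at week 1. With at least 50% of each window covered, bivalent members numbered 12 in WT and 5 in KO at week 1 and 10 in KO at week 2. With an H3K27me3 mean count at or above the lowest of the WT list, 16 of 25 were not bivalent in KO at week 3. That minimum could remove KO domains only, so the number could not fall. With the WT mESC H3K27me3 list shortened to the bases of the KO list, 14 members were bivalent in WT mESC (6.33% of coding genes), 11 of them ligands. Under the score and coverage settings and the shortened list, more members were bivalent in WT than in KO at each stage run. Within 50 kb, Oct4 in WT reached 17 of 38 members (all coding genes 39.3%, so that the share was near the background), and Nanog 9 in WT (9.66%) and 20 in KO (35%). With summits at or above the median height, Sox2 reached 5 members in WT and 12 in KO, and Nanog 3 in WT. The KO Oct4 and the Uhrf1 count stayed at 0 under each alternative run for them. With only the higher summits, or with the Uhrf1 window on the start itself, a count of 0 could not change. Within 50 kb, Oct4 in KO reached 1.44% of all coding genes, so that 0 members says little. The cause was not tested. No paired analysis was possible because each group held 1 library. Read depth per library and the scaling of mean counts limit comparison of levels between lists.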
